A study of Homo sapiens with 12 samples.

Results

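The 52 genes described here encode enzymes, membrane proteins and a cholesterol carrier of the lysosome, subunits of its proton pump, the transcription factors TFEB, TFE3 and MITF, and receptors and core proteins of autophagy. They were chosen by name, with earlier results of these data known. Each was found on 1 line of a table of 58735 lines of read counts per gene symbol. All 52 were among the 16946 genes that passed the filter on low counts and were tested. Poly(A)-selected, strand-specific RNA was sequenced in CAL-27 and SCC-15, both human lines of oral squamous cell carcinoma, with a short hairpin against TTK (shTTK, genotype label TTK knockdown) or in control cells. TTK is a kinase of the mitotic spindle checkpoint. The 4 groups of 3 libraries were CAL-27 shTTK, CAL-27 shControl, SCC-15 shTTK and SCC-15 shControl. All 12 libraries are labelled untreated and batch 1, and the controls carry the genotype label WT beside the name shControl. The sources used here give neither the hairpin sequences nor whether a line was 1 clone or a pool. The labels do not say that the numbered libraries were separate cultures, so the p-values reflect the spread among these libraries alone, and that spread may be technical.

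Lysosomes are acidic organelles in which hydrolases break down proteins, glycans and lipids delivered by endocytosis and autophagy. The vacuolar proton pump acidifies their lumen, and autophagosomes, which enclose cargo bound by receptors such as SQSTM1, fuse with them. TFEB and its relatives bind short DNA elements near the start of many lysosomal and autophagy genes. The kinase complex mTORC1, which the title of the series names, phosphorylates TFEB and keeps it in the cytoplasm when nutrients are plentiful.

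Total counts lay between 16176655 and 18484112 per library, and levels are CPM, counts scaled to a common library size by TMM. Library values of a group follow its libraries 1, 2 and 3. TTK averaged 33.9 ± 1.57 CPM in CAL-27 shTTK and 49.4 ± 3.58 CPM in CAL-27 shControl libraries, a log2 fold change of -0.54 ± 0.066 that left 68.6% of the control level (SD, n = 3, SE on the fold change, edgeR adjusted p = 4.04e-10). In SCC-15 it averaged 30.1 ± 3.80 CPM in shTTK and 69.9 ± 2.77 CPM in shControl libraries, which left 43.1% (log2 fold change -1.21 ± 0.065, edgeR adjusted p = 1.92e-25). In SCC-15, library 1 of each group differed more from libraries 2 and 3 by the mean chi-square per gene, which was 3.07 and 3.78 in shTTK (1.95 between libraries 2 and 3) and 5.62 and 5.96 in shControl (1.98 between libraries 2 and 3). Over the median gene, with sampling noise alone set to 1, the chi-square for library 1 was 2.20 and 2.63 in SCC-15 shTTK (1.77 between libraries 2 and 3) and 1.92 and 2.11 in SCC-15 shControl (1.76 between libraries 2 and 3), against 1.94 to 2.14 among the library pairs of CAL-27. The 9 keratinocyte markers were all detected, and their summed level was 4938 to 4975 CPM in CAL-27 shTTK against 2912 to 3040 CPM in CAL-27 shControl, and 7721 to 7808 CPM in SCC-15 shTTK against 8152 to 8496 CPM in SCC-15 shControl. Single markers went both ways: in CAL-27, 6 of the 9 were called higher, and EPCAM and CDH1 lower, and in SCC-15, 4 were called lower, and CDH1, SFN and PERP higher. Of markers of other cells, the 6 of fibroblasts (4 tested) summed to 41.7 to 42.1 CPM in CAL-27 shTTK against 31.4 to 37.6 CPM in CAL-27 shControl, and to 20.4 to 22.7 CPM in SCC-15 shTTK against 21.0 to 22.9 CPM in SCC-15 shControl. The 5 of leukocytes (2 tested) summed to 13.4 to 16.8 CPM in CAL-27 shTTK against 11.7 to 15.1 CPM in CAL-27 shControl, and to at most 1.04 CPM in any SCC-15 library, and PTPRC, which defines them, had at most 2 counts in any library. The 4 of endothelium (3 tested) summed to 72.7 to 74.6 CPM in CAL-27 shTTK against 101.9 to 108 CPM in CAL-27 shControl and to at most 2.24 CPM in SCC-15, with KDR at 0 counts in every library. CDH5 made up nearly all of that sum, with 71.5 CPM in CAL-27 shTTK and 104.2 CPM in CAL-27 shControl libraries. The part of these marker shifts in the results that follow was not tested. In bulk RNA, fewer cells of a type and less RNA per cell cannot be told apart.

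With TTK knockdown, the 52 genes did not move one way. In CAL-27, 12 were higher, 12 were lower and 28 were not called at an adjusted p under 0.05 (edgeR quasi-likelihood test, Benjamini-Hochberg over all tested genes). So 46.2% were called, against 27.3% of all tested genes (11.6% higher and 15.7% lower). In SCC-15, 13 were higher, 11 were lower and 28 were not called, again 46.2%, against 27.7% of all tested genes (13.4% higher and 14.3% lower). The median log2 fold change of the 52 genes was -0.05 in CAL-27 (-0.01 over all tested genes) and 0.01 in SCC-15 (0.00 over all tested genes). The 52 genes are abundant, with a median level of 75.6 CPM against 16.0 CPM over all tested genes. Among the 3096 tested genes between the quartiles of their level, 46.1 and 121 CPM, 42.0% were called in CAL-27 and 43.3% in SCC-15. The share called in each line was therefore close to that of genes at a like level.

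**Figure D1:**
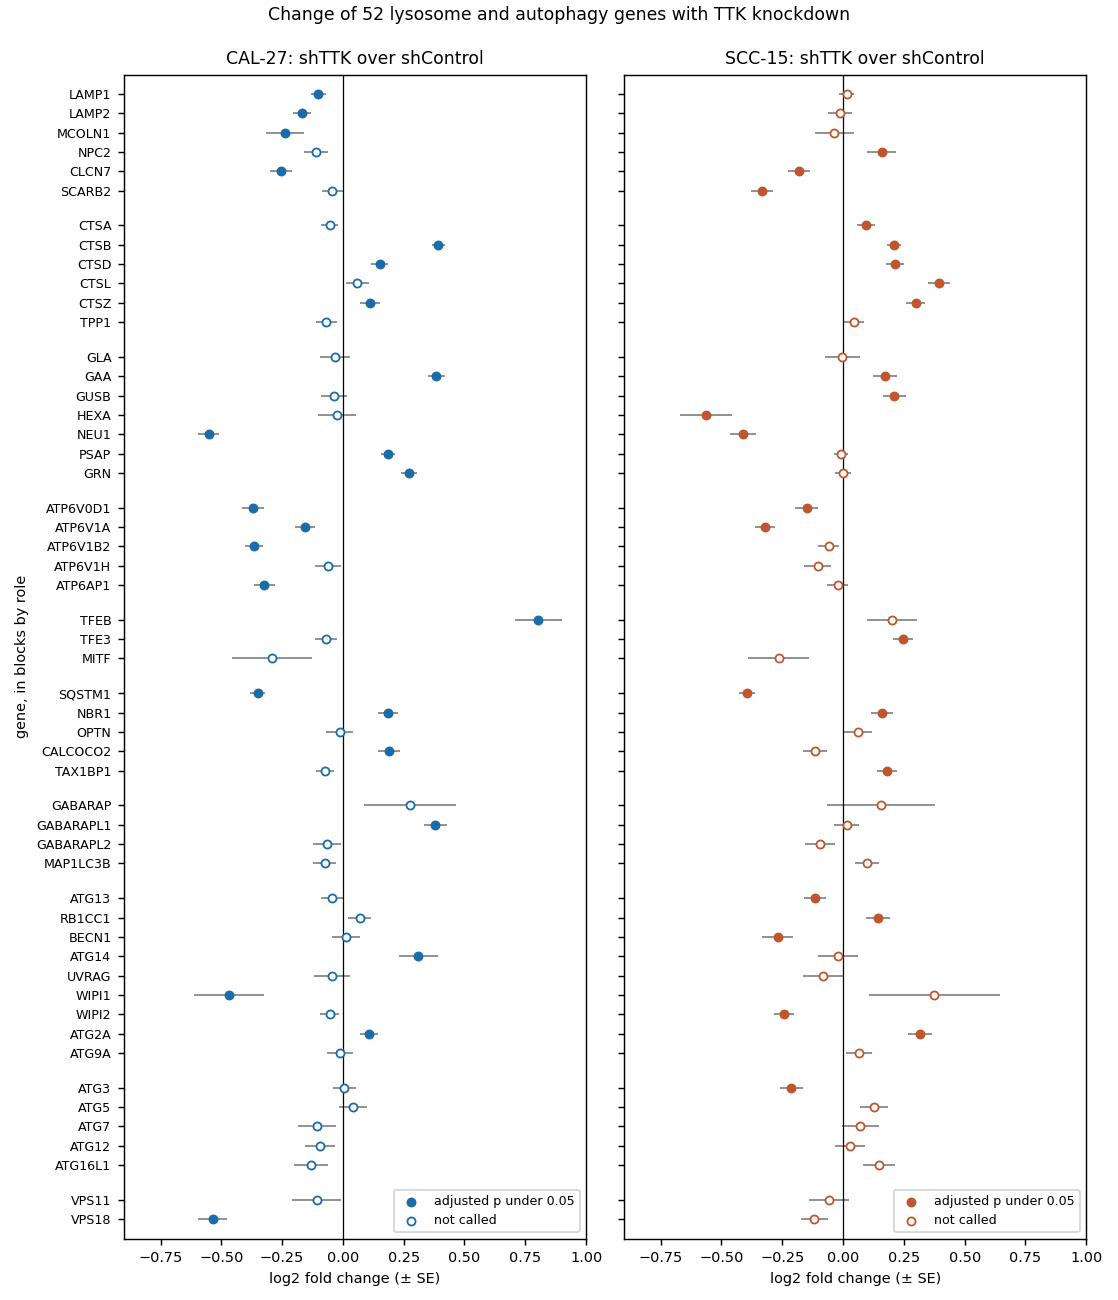
Log2 fold change (shTTK over shControl) of the 52 genes in CAL-27 (left) and SCC-15 (right), in blocks by role from lysosomal membrane and transport proteins at the top to tethers at the bottom; lines are ± 1 SE and filled points are genes called at an adjusted p under 0.05. The largest increase is TFEB in CAL-27 at 0.80, and no gene is called in opposite directions in the lines.

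Among the 52, every protease that was called was higher, and every pump subunit that was called was lower, in both lines. Of the 6 proteases, 3 were higher in CAL-27 and 5 in SCC-15, and none was called lower in either line (median log2 fold change 0.09 in CAL-27 and 0.21 in SCC-15). Of the 5 subunits of the proton pump, 4 were lower in CAL-27 and 2 in SCC-15, and none was called higher (medians -0.32 and -0.10). Of the 6 membrane and transport proteins, 4 were lower in CAL-27, and 2 were lower and 1 higher in SCC-15. Among the 7 glycosidases, activators and progranulin, 3 rose and 1 fell in CAL-27, and 2 rose and 2 fell in SCC-15. For these counts the background over genes at a like level was 42.0% called in either direction in CAL-27 and 43.3% in SCC-15, and over all tested genes 11.6% were higher and 15.7% lower in CAL-27, and 13.4% were higher and 14.3% lower in SCC-15. Groups of 5 to 7 genes were not tested against these shares. The summed level of the 6 proteases was 3154 ± 78.2 CPM in CAL-27 shTTK and 2560.5 ± 73.3 CPM in CAL-27 shControl libraries, and 1438 ± 28.5 CPM in SCC-15 shTTK and 1246 ± 9.44 CPM in SCC-15 shControl libraries (SD, n = 3). That of the 5 pump subunits was 547 ± 10.6 CPM in CAL-27 shTTK and 665 ± 9.29 CPM in CAL-27 shControl libraries, and 368 ± 3.73 CPM in SCC-15 shTTK and 406 ± 4.72 CPM in SCC-15 shControl libraries. CTSB makes up most of the protease sum in CAL-27, where it averaged 2339 ± 74.9 CPM in shTTK and 1782 ± 46.8 CPM in shControl libraries.

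In all, 11 members were called in the same direction in both lines. CTSB, CTSD, CTSZ, GAA, NBR1 and ATG2A rose in both, which is 6 of 52 (11.5%, against 2.87% of all tested genes and 4.26% of genes at a like level). CLCN7, NEU1, ATP6V0D1, ATP6V1A and SQSTM1 fell in both, which is 5 of 52 (9.62%, against 4.01% and 8.56%). No member was called in opposite directions (4.81% of all tested genes and 7.66% of genes at a like level were), and 15 of 52 were called in neither line (28.8%, against 56.7% and 35.1%). Each line has its own control libraries, so these calls share no sample, although they share the fit that estimates the spread.

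**Figure D2:**
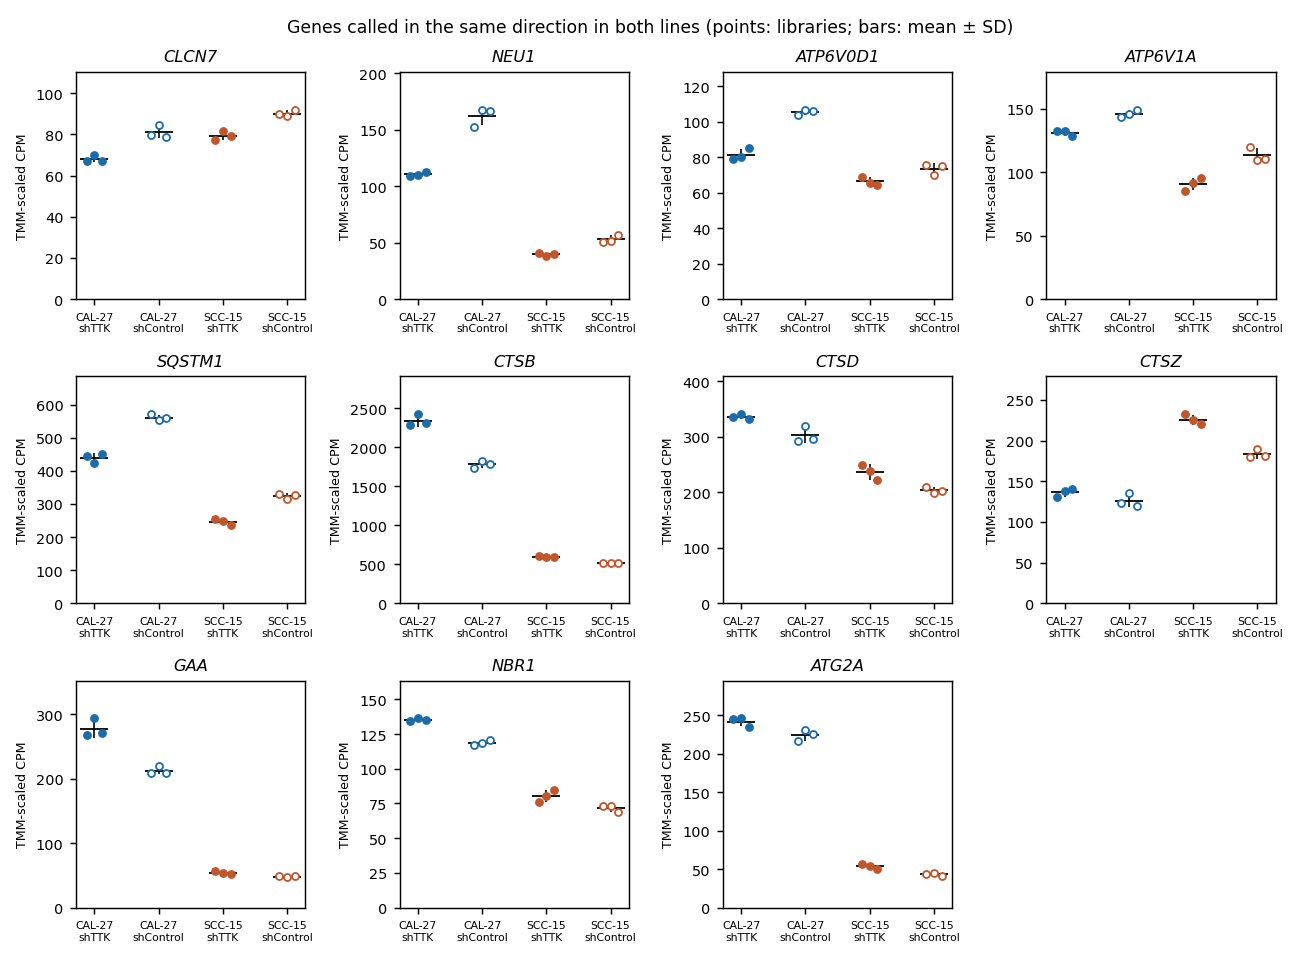
TMM-scaled CPM of the 11 genes called in the same direction in both lines, by group (points are libraries, bars mean ± SD, n = 3). The first 5 panels hold the genes that fell and the next 6 those that rose; in every panel except CTSZ in CAL-27 the shTTK and shControl libraries of a line do not overlap.

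The letters CACGTG, which occur within elements that TFEB binds, lie in some promoters both of genes that fell and of genes that rose. For that reason the promoters of 3 of the genes that fell in both lines and of 1 that rose are shown. Each is 250 bases before to 50 bases after the RefSeq start (GRCh38.p14), 5′ to 3′ on the gene's strand, and capitals mark the letters CACGTG, a palindrome known as an E-box. The regions are chr6:31862772-31863071 (minus strand) for NEU1, chr5:179806143-179806442 (plus) for SQSTM1, chr16:1474979-1475278 (minus) for CLCN7 and chr17:80101331-80101630 (plus) for GAA. The first 3 have the largest smaller change of the lines among the genes that fell, and GAA was added after its values were seen.
NEU1: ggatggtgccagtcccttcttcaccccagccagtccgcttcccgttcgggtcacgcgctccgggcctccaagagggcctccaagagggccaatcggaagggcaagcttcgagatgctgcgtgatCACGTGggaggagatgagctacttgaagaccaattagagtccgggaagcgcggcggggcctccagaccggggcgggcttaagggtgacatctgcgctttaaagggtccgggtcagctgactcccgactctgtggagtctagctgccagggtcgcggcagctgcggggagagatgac
SQSTM1: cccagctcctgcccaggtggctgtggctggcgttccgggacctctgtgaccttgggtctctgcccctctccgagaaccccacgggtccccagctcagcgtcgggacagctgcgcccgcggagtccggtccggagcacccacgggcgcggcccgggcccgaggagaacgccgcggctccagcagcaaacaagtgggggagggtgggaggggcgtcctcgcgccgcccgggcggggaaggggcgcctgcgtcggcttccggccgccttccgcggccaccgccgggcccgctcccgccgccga
CLCN7: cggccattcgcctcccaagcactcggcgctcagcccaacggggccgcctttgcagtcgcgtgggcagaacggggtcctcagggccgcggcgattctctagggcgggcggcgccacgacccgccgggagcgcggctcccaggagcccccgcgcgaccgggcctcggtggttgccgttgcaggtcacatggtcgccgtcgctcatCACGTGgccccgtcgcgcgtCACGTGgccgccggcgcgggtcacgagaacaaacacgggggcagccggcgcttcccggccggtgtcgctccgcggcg
GAA: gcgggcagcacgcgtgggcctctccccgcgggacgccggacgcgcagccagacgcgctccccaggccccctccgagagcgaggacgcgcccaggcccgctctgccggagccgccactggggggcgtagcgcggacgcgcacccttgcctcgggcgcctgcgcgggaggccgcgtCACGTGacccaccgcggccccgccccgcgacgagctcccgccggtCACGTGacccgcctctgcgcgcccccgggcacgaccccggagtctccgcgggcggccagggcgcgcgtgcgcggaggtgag
NEU1 holds 1 such element at position -126 from the start, CLCN7 holds 2 at -47 and -27, GAA holds 2 at -76 and -31, and SQSTM1 holds none in this window. Only 1 window per member was searched, so any other start of a gene, SQSTM1 included, was not covered. RefSeq's promoter table matched 42 of the 52 genes, and 11 of these held CACGTG (26.2%), against 1423 of 15546 tested protein-coding genes (9.15%) and 2548 of all 35116 promoters (7.26%). The longer TCACGTGA, which contains CACGTG, stood in 7 of the 42 (16.7%), against 1.63% of tested protein-coding genes. Of the promoters shown, only that of GAA held it. Both motifs are palindromes, so a search of 1 strand covers both. The letters CACGTG were found in 3 of the 4 matched genes that fell in both lines, in 2 of the 5 that rose in both and in 1 of the 13 called in neither. The longer TCACGTGA was found in 1 of the 4, in 1 of the 5 and in 1 of the 13. Among genes called in 1 line alone, LAMP1, MCOLN1, CTSA, ATG14 and ATG3 held CACGTG, and the other matched ones did not. CTSB and ATP6V1A, called in both lines, were not matched. These groups are small and were not tested against each other. LAMP1 held the most, 6, and it differed by -0.10 on the log2 scale in CAL-27 and by 0.02 in SCC-15. A match is a description of the sequence and not a measurement of binding.

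Among the members, the cathepsins CTSA, CTSB, CTSD, CTSL and CTSZ were each called higher in at least 1 line. CTSB (chromosome 8, 11842524 to 11869448, minus strand, GRCh38) encodes a cysteine protease and was among the most abundant members per length. Its levels were 2284, 2424 and 2308 CPM in CAL-27 shTTK and 1734, 1828 and 1784 CPM in CAL-27 shControl libraries (log2 fold change 0.39 ± 0.028, edgeR adjusted p = 2.1e-20). In SCC-15 they were 601, 594 and 593 CPM in the shTTK libraries, against 519.6, 516 and 514 CPM in the shControl libraries (0.21 ± 0.029, edgeR adjusted p = 9.04e-09). The groups did not overlap in either line, and the CAL-27 increase was the larger. CTSD, the main aspartic protease of lysosomes, had 336, 341 and 333 CPM in the shTTK libraries, against 293, 319 and 296 CPM in the shControl libraries of CAL-27 (0.15 ± 0.035, edgeR adjusted p = 0.000382). In SCC-15 it had 250.1, 238 and 222 CPM in the shTTK libraries, against 210.4, 199 and 203 CPM in the shControl libraries (0.21 ± 0.036, edgeR adjusted p = 1.97e-06). Every shTTK library was above every control library of its line. Its exons share 1304 bases with AC068580.4 on the same strand, which averaged 10.3 counts against 4613 for CTSD.

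CTSZ encodes a carboxypeptidase of the cathepsin family. In SCC-15 its levels were 232, 225 and 220.1 CPM in the shTTK libraries, against 179.6, 190.2 and 181 CPM in the shControl libraries (0.30 ± 0.037, edgeR adjusted p = 7.43e-10), with all shTTK libraries above all controls. In CAL-27 they were 130.2, 138 and 140.2 CPM in the shTTK libraries, against 123, 135 and 119.6 CPM in the shControl libraries (0.11 ± 0.04, edgeR adjusted p = 0.0273), and control library 2 lay within the shTTK range. The CAL-27 call was lost without CAL-27 shControl library 1 (0.09), CAL-27 shControl library 3 (0.07), CAL-27 shTTK library 2 (0.10) or CAL-27 shTTK library 3 (0.11), where the log2 fold change stands in parentheses, and with DESeq2 or limma-voom, and over the alternatives its adjusted p ran from 0.000643 to 0.254. Without CAL-27 shControl library 2 the log2 fold change was 0.18. CTSL, another cysteine protease, rose in SCC-15, with 98.1, 97.2 and 97.1 CPM in the shTTK libraries, against 73.4, 78.5 and 70.4 CPM in the shControl libraries (0.40 ± 0.046, edgeR adjusted p = 6.42e-11). In CAL-27 the groups overlapped (77.5, 70.9 and 77.5 CPM in shTTK and 73.4, 73.4 and 69.9 CPM in shControl libraries, 0.06 ± 0.048, edgeR adjusted p = 0.402). CTSA, the carboxypeptidase that stabilises NEU1, had a small increase in SCC-15 (0.09 ± 0.035, edgeR adjusted p = 0.0359). That call was lost without SCC-15 shControl library 1 (0.08), SCC-15 shControl library 3 (0.10), SCC-15 shTTK library 1 (0.08), SCC-15 shTTK library 3 (0.09) or both SCC-15 libraries numbered 1 (0.07), and its adjusted p ran from 0.0141 to 0.269 over the alternatives. TPP1, a tripeptidyl peptidase, was not called in either line (log2 fold changes -0.07 and 0.04 in CAL-27 and SCC-15).

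NEU1 (chromosome 6, 31857659 to 31862906, minus strand), the sialidase that removes terminal sialic acids from glycoproteins, had the largest decrease of any member in CAL-27. Its levels were 109, 110.2 and 112 CPM in CAL-27 shTTK and 153, 167 and 166 CPM in CAL-27 shControl libraries (-0.55 ± 0.043, edgeR adjusted p = 1.73e-18), which left 68.2% of the control level. In SCC-15 they were 41.2, 38.4 and 40.1 CPM in the shTTK libraries, against 50.7, 51.4 and 57.0 CPM in the shControl libraries (-0.41 ± 0.053, edgeR adjusted p = 1.48e-09), or 75.2% of the control level. All shTTK libraries lay below all controls of their line. GAA, the acid alpha-glucosidase that degrades glycogen, went the other way, with 268, 293 and 271 CPM in the shTTK libraries, against 209, 219 and 209 CPM in the shControl libraries of CAL-27 (0.38 ± 0.036, edgeR adjusted p = 1.66e-14). In SCC-15 it had 56.7, 53.6 and 51.9 CPM in the shTTK libraries, against 48.2, 47.1 and 48.6 CPM in the shControl libraries (0.17 ± 0.048, edgeR adjusted p = 0.00372). The groups did not overlap in either line. The SCC-15 call of GAA was lost without both SCC-15 libraries numbered 1, an alternative chosen after seeing the data, where the log2 fold change was 0.14, and over the alternatives its adjusted p ran from 0.00155 to 0.0622.

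HEXA encodes the alpha subunit of beta-hexosaminidase A, which degrades gangliosides, and it had the largest decrease of any member in SCC-15. It had 9.10, 6.68 and 8.55 CPM in the shTTK libraries, against 11.4, 12.4 and 12.1 CPM in the shControl libraries (-0.56 ± 0.11, edgeR adjusted p = 1.66e-05), with no overlap. Its exons share 617 bases with AC009690.1 on the same strand, which averaged 0.417 counts against 377 for HEXA. In CAL-27 the groups overlapped, at 33.0, 32.8 and 36.2 CPM in shTTK and 32.8, 37.2 and 33.7 CPM in shControl libraries (-0.02 ± 0.076, edgeR adjusted p = 0.87). GUSB, which encodes beta-glucuronidase, rose in SCC-15, with 83.4, 83.1 and 84.9 CPM in the shTTK libraries, against 70.6, 72.2 and 74.5 CPM in the shControl libraries (0.21 ± 0.048, edgeR adjusted p = 0.000342), and in CAL-27 its log2 fold change was -0.04 ± 0.053, edgeR adjusted p = 0.688. GRN encodes progranulin, a secreted and lysosomal protein cut into granulins. It had 427, 437 and 443 CPM in the shTTK libraries, against 356, 373 and 353 CPM in the shControl libraries of CAL-27 (0.27 ± 0.032, edgeR adjusted p = 4.89e-11), with no overlap, and in SCC-15 the groups overlapped (379.8, 348 and 362 CPM in shTTK and 359.5, 371 and 359.7 CPM in shControl libraries). PSAP, the precursor of the saposins that help glycosidases reach their lipid substrates, rose in CAL-27 (0.19 ± 0.029, edgeR adjusted p = 1.62e-07) and had a log2 fold change of -0.01 in SCC-15. GLA, which encodes alpha-galactosidase A, was not called in either line.

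Of the 5 subunits of the proton pump, 4 were called lower in CAL-27 and 2 in SCC-15, where 1 of the calls depended on single libraries. ATP6V0D1, which belongs to the membrane sector of the pump, had 79.3, 80.1 and 85.5 CPM in the shTTK libraries, against 104, 107 and 106 CPM in the shControl libraries of CAL-27 (-0.37 ± 0.045, edgeR adjusted p = 1.86e-10). In SCC-15 it had 69.0, 65.8 and 64.7 CPM in the shTTK libraries, against 75.8, 70.3 and 75.0 CPM in the shControl libraries (-0.15 ± 0.047, edgeR adjusted p = 0.0118). The groups did not overlap in either line, but the SCC-15 call was lost without SCC-15 shControl library 1 (-0.13), SCC-15 shControl library 3 (-0.13), SCC-15 shTTK library 2 (-0.13) or SCC-15 shTTK library 3 (-0.13), and its adjusted p ran from 0.00752 to 0.0756 over the alternatives. ATP6V1A, the subunit that hydrolyses ATP, had 133, 132 and 129 CPM in the shTTK libraries, against 144, 146 and 149 CPM in the shControl libraries of CAL-27 (-0.16 ± 0.04, edgeR adjusted p = 0.00166), and 85.3, 91.4 and 95.2 CPM in the shTTK libraries, against 119.8, 109 and 110.5 CPM in the shControl libraries of SCC-15 (-0.32 ± 0.042, edgeR adjusted p = 2.41e-09). All shTTK libraries lay below all controls of their line. ATP6V1B2, its partner in the catalytic ring, fell in CAL-27, with 186, 189 and 196 CPM in the shTTK libraries, against 239.7, 248 and 247 CPM in the shControl libraries (-0.37 ± 0.036, edgeR adjusted p = 1.04e-13), and the groups overlapped in SCC-15 (-0.06). ATP6AP1, an accessory protein of pump assembly, fell in CAL-27 (-0.32 ± 0.043, edgeR adjusted p = 2.93e-09) and had a log2 fold change of -0.02 in SCC-15. ATP6V1H, a regulatory subunit, was called in neither line (-0.06 and -0.10 in CAL-27 and SCC-15).

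Of the 6 membrane and transport proteins, the calls were to lower levels except that of NPC2, a soluble protein of the lumen. CLCN7, a chloride and proton exchanger, had 67.3, 69.9 and 66.9 CPM in the shTTK libraries, against 79.9, 84.5 and 79.0 CPM in the shControl libraries of CAL-27 (-0.25 ± 0.047, edgeR adjusted p = 8.99e-06). In SCC-15 it had 77.2, 81.7 and 79.4 CPM in the shTTK libraries, against 89.8, 88.8 and 91.8 CPM in the shControl libraries (-0.18 ± 0.045, edgeR adjusted p = 0.000917). It was the 1 of the 6 that fell in both lines, with no overlap between groups in either. SCARB2, the receptor that carries glucocerebrosidase to lysosomes, fell in SCC-15, with 78.2, 76.2 and 85.9 CPM in the shTTK libraries, against 102, 103 and 98.6 CPM in the shControl libraries (-0.33 ± 0.045, edgeR adjusted p = 5.98e-09), whereas the groups overlapped in CAL-27 (-0.04). LAMP2, an abundant glycoprotein of the lysosomal membrane, fell in CAL-27 (-0.17 ± 0.039, edgeR adjusted p = 0.000389) and had a log2 fold change of -0.01 in SCC-15. Its relative LAMP1 was called lower in CAL-27 by a small margin (-0.10 ± 0.03, edgeR adjusted p = 0.00714), and that call was lost without CAL-27 shControl library 2 (-0.09) or CAL-27 shTTK library 3 (-0.07) and with no filter on low counts (adjusted p from 0.00266 to 0.169 over the alternatives). MCOLN1, a calcium release channel, was called lower in CAL-27 (-0.24 ± 0.079, edgeR adjusted p = 0.0164) but not without CAL-27 shControl library 2 (-0.14) or CAL-27 shTTK library 1 (-0.19) (adjusted p from 0.00857 to 0.299). NPC2, which passes cholesterol out of the lumen, was called higher in SCC-15 (0.16 ± 0.06, edgeR adjusted p = 0.0362). That call was lost without SCC-15 shControl library 2 (0.15), SCC-15 shControl library 3 (0.10) or SCC-15 shTTK library 1 (0.14), with limma-voom and with the line fitted alone, and its log2 fold change was 0.24 without SCC-15 shControl library 1 (adjusted p from 0.00254 to 0.309).

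TFEB, the factor that gives the family its name, had the largest change of any member in CAL-27. Its levels were 19.3, 21.7 and 20.5 CPM in the shTTK libraries, against 10.6, 12.2 and 12.4 CPM in the shControl libraries (0.80 ± 0.098, edgeR adjusted p = 1.77e-10), so that every shTTK library was well above every control library. In SCC-15 it had 12.5, 13.1 and 12.6 CPM in the shTTK libraries, against 10.9, 10.8 and 11.6 CPM in the shControl libraries, which did not overlap but were not called apart (0.20 ± 0.10, edgeR adjusted p = 0.149). TFE3, its close relative, rose in SCC-15, with 120.1, 123 and 119 CPM in the shTTK libraries, against 103, 103 and 98.8 CPM in the shControl libraries (0.25 ± 0.042, edgeR adjusted p = 1.59e-06). In CAL-27 it had 77.1, 75.5 and 75.1 CPM in the shTTK libraries, against 78.9, 83.9 and 76.0 CPM in the shControl libraries (-0.07 ± 0.045, edgeR adjusted p = 0.263), where the ranges overlapped. MITF, best known from pigment cells, was the member with the lowest level per length in CAL-27 and was called in neither line (-0.29 ± 0.17 in CAL-27 and -0.26 ± 0.13 in SCC-15). These are RNA levels, and the activity of TFEB is set mainly by where its protein is in the cell, which was not measured.

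SQSTM1 (chromosome 5, 179806398 to 179838078, plus strand), the receptor also called p62 that links ubiquitinated cargo to autophagosomes, was lower in both lines. It had 446, 424 and 449.7 CPM in the shTTK libraries, against 571, 553 and 559 CPM in the shControl libraries of CAL-27 (-0.35 ± 0.031, edgeR adjusted p = 1.27e-15). In SCC-15 it had 256, 248 and 238 CPM in the shTTK libraries, against 331, 316 and 328 CPM in the shControl libraries (-0.40 ± 0.032, edgeR adjusted p = 3.43e-17). No library of 1 group lay within the range of the other in either line. On the opposite strand 1582 bases of its exons overlap MRNIP, which averaged 478 counts against 6720 for SQSTM1. NBR1, a related receptor, was higher in both lines, with 134, 136 and 135 CPM in the shTTK libraries, against 117, 118 and 121 CPM in the shControl libraries of CAL-27 (0.19 ± 0.041, edgeR adjusted p = 0.000182), and 76.0, 80.6 and 84.3 CPM in the shTTK libraries, against 73.4, 73.5 and 68.7 CPM in the shControl libraries of SCC-15 (0.16 ± 0.045, edgeR adjusted p = 0.00328). These groups did not overlap either. CALCOCO2, a receptor for bacteria and mitochondria, rose in CAL-27 (0.19 ± 0.046, edgeR adjusted p = 0.000803) and had a log2 fold change of -0.11 ± 0.05 in SCC-15. TAX1BP1, a receptor of protein aggregates, rose in SCC-15 (0.18 ± 0.04, edgeR adjusted p = 0.000199) and had a log2 fold change of -0.07 ± 0.038 in CAL-27. OPTN, a receptor of damaged mitochondria, was called in neither (-0.01 and 0.06 in CAL-27 and SCC-15).

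Of the 4 ATG8 family members, the ubiquitin-like proteins that are attached to lipid on the autophagosome, 1 was called in CAL-27 and none in SCC-15. Of all tested genes, 27.3% and 27.7% were called in these lines, and 4 genes cannot be told apart from such shares. GABARAPL1 had 91.3, 89.2 and 84.8 CPM in the shTTK libraries, against 68.6, 69.5 and 65.6 CPM in the shControl libraries of CAL-27 (0.38 ± 0.048, edgeR adjusted p = 6.36e-10), with no overlap. In SCC-15 its groups overlapped, at 57.6, 59.0 and 62.1 CPM in shTTK and 58.5, 58.9 and 59.5 CPM in shControl libraries (0.02 ± 0.05, edgeR adjusted p = 0.878). Its near copy GABARAPL3 had 0 counts in every library. MAP1LC3B, the LC3 protein most used as an autophagosome marker, had log2 fold changes of -0.07 ± 0.048 in CAL-27 and 0.10 ± 0.049 in SCC-15, and GABARAPL2 of -0.06 ± 0.057 and -0.09 ± 0.061, none of them called. GABARAP had only 37 to 92 counts per library and was not called. Its exons share 691 of 2266 bases on the same strand with AC120057.2, listed at 0 counts, so its low count is uncertain.

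The genes that start the autophagosome changed in both directions. ATG2A, which moves lipid into the growing membrane, had 56.7, 54.6 and 50.1 CPM in the shTTK libraries, against 44.1, 44.7 and 40.8 CPM in the shControl libraries of SCC-15 (0.32 ± 0.05, edgeR adjusted p = 3.13e-07). In CAL-27 it had 245, 246 and 235 CPM in the shTTK libraries, against 216, 231 and 226 CPM in the shControl libraries (0.11 ± 0.037, edgeR adjusted p = 0.0203). The groups did not overlap in either line, but the CAL-27 call was lost without CAL-27 shControl library 1 (0.08) or CAL-27 shTTK library 2 (0.09) (adjusted p from 0.0023 to 0.194 over the alternatives). ATG14, which directs the class III phosphatidylinositol kinase to autophagosome formation, rose in CAL-27, with 27.2, 28.5 and 30.3 CPM in the shTTK libraries, against 24.1, 23.2 and 22.1 CPM in the shControl libraries (0.31 ± 0.08, edgeR adjusted p = 0.00165). In SCC-15 its shTTK libraries spread around the controls, at 19.7, 25.9 and 22.0 CPM in shTTK and 22.6, 23.2 and 22.6 CPM in shControl libraries. BECN1, a scaffold of the same complex, fell in SCC-15, with 33.1, 33.7 and 36.1 CPM in the shTTK libraries, against 41.2, 41.0 and 41.9 CPM in the shControl libraries (-0.27 ± 0.062, edgeR adjusted p = 0.000368), and had a log2 fold change of 0.01 in CAL-27. The BECN1 exons overlap 300 bases of PSME3 on the opposite strand, which averaged 3578 counts against 795 for BECN1.

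WIPI1, which binds the lipid made by that kinase, was called lower in CAL-27, with 8.44, 8.10 and 6.58 CPM in the shTTK libraries, against 10.2, 10.8 and 11.0 CPM in the shControl libraries (-0.47 ± 0.14, edgeR adjusted p = 0.00904). The groups did not overlap, but the call was lost without CAL-27 shTTK library 3 (-0.35) (adjusted p from 0.00306 to 0.113). On the opposite strand 828 bases of its exons overlap ARSG, which averaged 56.6 counts against 88.4 for WIPI1. In SCC-15 WIPI1 was at a low level, with 1.40, 1.38 and 1.34 CPM in shTTK and 1.20, 1.15 and 0.821 CPM in shControl libraries. Its relative WIPI2, which recruits ATG16L1, fell in SCC-15 (-0.24 ± 0.042, edgeR adjusted p = 2.38e-06) and had a log2 fold change of -0.05 in CAL-27. RB1CC1, the scaffold of the ULK kinase complex, was called higher in SCC-15 (0.14 ± 0.05, edgeR adjusted p = 0.0243) but not without SCC-15 shControl library 1 (0.13), SCC-15 shControl library 2 (0.14) or SCC-15 shTTK library 2 (0.12) (adjusted p from 0.00798 to 0.128). ATG13, another subunit of that complex, was called lower in SCC-15 (-0.12 ± 0.045, edgeR adjusted p = 0.0439), and 12 of 20 alternatives ended the call, among them the fits without CAL-27 shControl library 2 (-0.11), CAL-27 shTTK library 1 (-0.11), CAL-27 shTTK library 3 (-0.11), SCC-15 shControl library 1 (-0.10), SCC-15 shControl library 2 (-0.07), SCC-15 shTTK library 2 (-0.10) or SCC-15 shTTK library 3 (-0.07) (adjusted p from 0.00406 to 0.353). UVRAG, which takes the place of ATG14 in a second kinase complex, and ATG9A, the lipid scramblase of the vesicles that seed the membrane, were called in neither line. The ATG9A exons share 1833 bases with AC068946.2 on the same strand, which averaged 3.33 counts against 1205 for ATG9A.

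Of the 5 genes that attach ATG8 and ATG12 proteins, none was called in CAL-27 and 1 in SCC-15, against 27.3% and 27.7% of all tested genes, which 5 genes cannot tell apart. ATG3, the conjugating enzyme of the ATG8 family, was called lower in SCC-15, with 66.0, 67.9 and 68.8 CPM in the shTTK libraries, against 79.4, 77.9 and 77.6 CPM in the shControl libraries (-0.21 ± 0.048, edgeR adjusted p = 0.000309) and no overlap. ATG7, the activating enzyme, ATG5 and ATG12, which are joined to each other, and ATG16L1, which binds them to the membrane, had log2 fold changes between -0.13 (ATG16L1) and 0.04 (ATG5) in CAL-27 and between 0.03 (ATG12) and 0.15 (ATG16L1) in SCC-15. On the opposite strand 1596 bases of the ATG7 exons overlap VGLL4, which averaged 605 counts against 410.0 for ATG7. VPS18 and VPS11 are shared subunits of the tethers that bring endosomes and autophagosomes to lysosomes. VPS18 had 35.8, 35.5 and 37.4 CPM in the shTTK libraries, against 51.3, 51.4 and 54.9 CPM in the shControl libraries of CAL-27 (-0.53 ± 0.06, edgeR adjusted p = 8.72e-12), a fall with no overlap, and in SCC-15 its groups overlapped (-0.12 ± 0.056, edgeR adjusted p = 0.113). VPS11 was called in neither line (-0.11 and -0.06 in CAL-27 and SCC-15).

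The SCC-15 change and the CAL-27 change were then compared directly, as the SCC-15 fold change less that of CAL-27, in the same fit. This difference was called positive for 15 of the 52 genes and negative for 14 (55.8%, against 25.4% of all tested genes, 13.3% positive and 12.1% negative, and 41.1% of genes at a like level), with a median of 0.07 (0.00 over all tested genes). The count of 15 became 9 without SCC-15 shControl library 3. The largest differences in which SCC-15 was below CAL-27 were TFEB (-0.60 ± 0.14, edgeR adjusted p = 0.000616), HEXA (-0.54 ± 0.13, edgeR adjusted p = 0.0009), GABARAPL1 (-0.36 ± 0.07, edgeR adjusted p = 2.17e-05) and ATG14 (-0.33 ± 0.11, edgeR adjusted p = 0.0246). For TFEB, GABARAPL1 and ATG14 the call in CAL-27 was an increase and there was none in SCC-15, while HEXA was called in SCC-15 alone. Those in which SCC-15 was above CAL-27 were WIPI1 (0.84 ± 0.31, edgeR adjusted p = 0.0323), VPS18 (0.42 ± 0.082, edgeR adjusted p = 3.84e-05), CTSL (0.34 ± 0.067, edgeR adjusted p = 4.41e-05) and TFE3 (0.32 ± 0.061, edgeR adjusted p = 2.62e-05). VPS18 and WIPI1 were called lower in CAL-27 alone, and CTSL and TFE3 higher in SCC-15 alone.

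Of these 8 differences, 2 depended on single libraries. That of ATG14 was lost without CAL-27 shControl library 3 (-0.29), CAL-27 shTTK library 3 (-0.30), SCC-15 shTTK library 1 (-0.26), SCC-15 shTTK library 3 (-0.31) or both SCC-15 libraries numbered 1 (-0.25), and with DESeq2 (adjusted p from 0.00234 to 0.151 over the alternatives). That of WIPI1 was lost without CAL-27 shControl library 2 (0.82), CAL-27 shTTK library 3 (0.73), SCC-15 shControl library 3 (0.68), SCC-15 shTTK library 1 (0.82), SCC-15 shTTK library 2 (0.83), SCC-15 shTTK library 3 (0.86) or both SCC-15 libraries numbered 1 (0.94), and also with limma-voom and with no filter on low counts (adjusted p from 0.0304 to 0.132). Among the 11 genes called in both lines, CTSB and GAA rose less in SCC-15 than in CAL-27 (differences -0.18 and -0.21), and CTSZ and ATG2A rose more (0.19 and 0.21). ATP6V0D1 fell less in SCC-15 (0.22) and ATP6V1A fell more (-0.17). The difference of CTSZ was lost without CAL-27 shControl library 2 (0.12) or CAL-27 shTTK library 1 (0.14), that of ATG2A without SCC-15 shControl library 3 (0.15) or SCC-15 shTTK library 1 (0.15), that of ATP6V0D1 without SCC-15 shControl library 2 (0.18), and that of ATP6V1A with DESeq2 and without CAL-27 shControl library 1 (-0.15), CAL-27 shTTK library 2 (-0.16), SCC-15 shControl library 1 (-0.12), SCC-15 shTTK library 1 (-0.14) or both SCC-15 libraries numbered 1 (-0.08). NEU1, SQSTM1, CLCN7, CTSD and NBR1 had no difference that passed the test (0.14, -0.05, 0.07, 0.06 and -0.03).

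**Figure D3:**
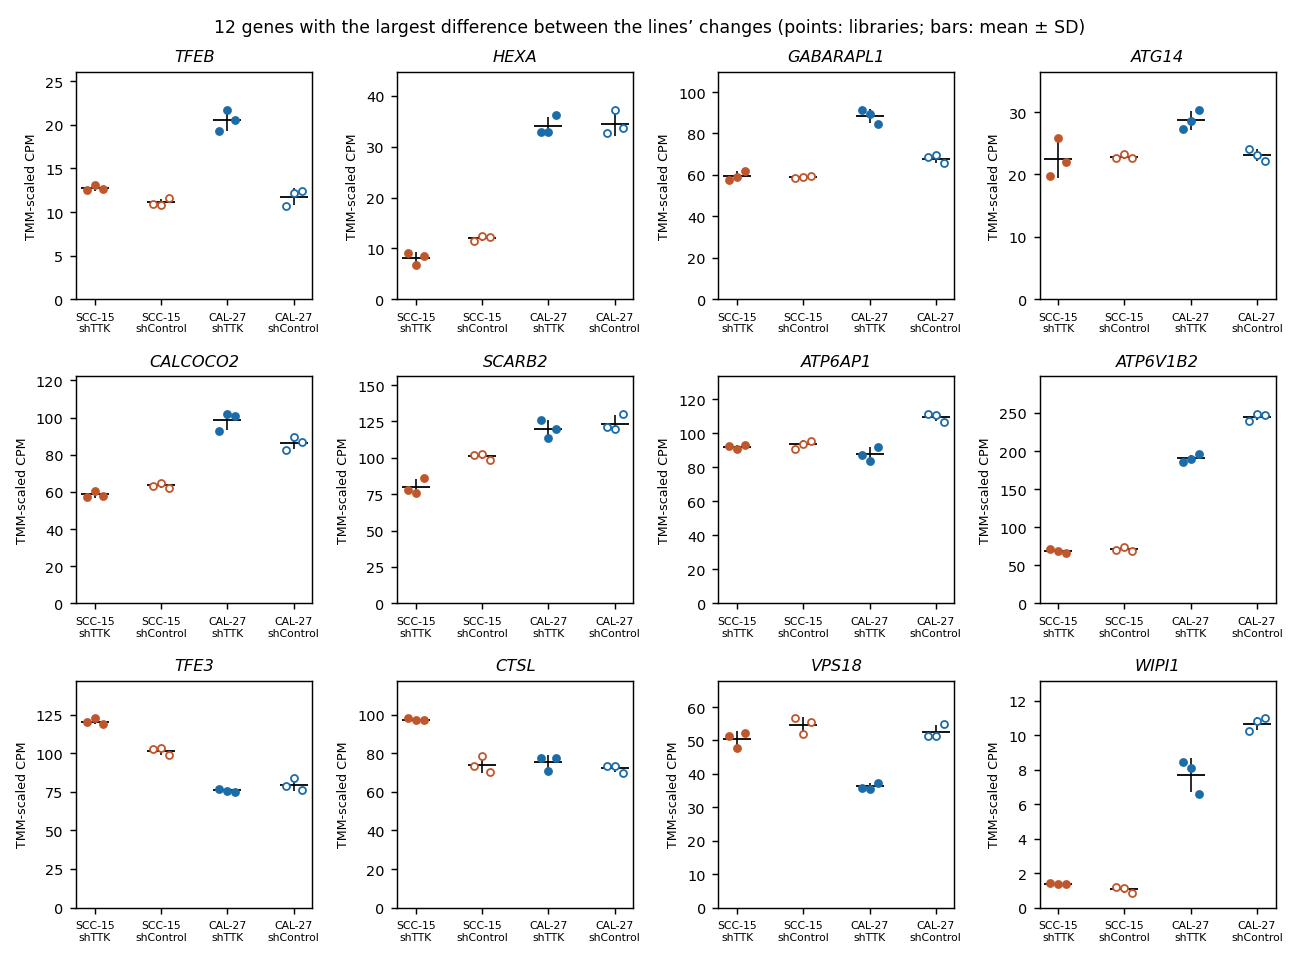
TMM-scaled CPM by group for the 12 genes with the largest difference (SCC-15 minus CAL-27 change), from TFEB, with the most negative, to WIPI1, with the most positive (points are libraries, bars mean ± SD, n = 3). TFEB and VPS18 are far apart between groups of CAL-27 and close in SCC-15, and SCARB2, TFE3 and CTSL the reverse.

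The lines also differed before knockdown. With SCC-15 shControl set against CAL-27 shControl, 8 of the 52 genes were higher, 32 were lower and 12 were not called, so 76.9% were called. This is close to the 76.0% of all tested genes and below the 87.4% of genes at a like level. By direction, 32 of 52 were lower, against 38.2% of all tested genes called lower (37.8% were higher). No share by direction was computed for genes at a like level. The median log2 fold change was -0.26 (-0.01 over all tested genes). The comparison uses the control libraries that the knockdown comparisons also use. WIPI1 was furthest apart, with 1.20, 1.15 and 0.821 CPM in SCC-15 and 10.2, 10.8 and 11.0 CPM in CAL-27 controls (-3.32 ± 0.20, edgeR adjusted p = 3.05e-26). ATG2A had 44.1, 44.7 and 40.8 CPM in SCC-15 and 216, 231 and 226 CPM in CAL-27 controls (-2.38 ± 0.044, edgeR adjusted p = 1.72e-58). GAA had 48.2, 47.1 and 48.6 CPM in SCC-15 and 209, 219 and 209 CPM in CAL-27 controls (-2.15 ± 0.043, edgeR adjusted p = 2.6e-56). For each of these genes the lines were far apart compared with the spread of their libraries. LAMP2 had 53.4, 52.5 and 50.4 CPM in SCC-15 and 188, 189 and 193 CPM in CAL-27 controls (-1.86 ± 0.043, edgeR adjusted p = 1.15e-51), whereas LAMP1 differed by -0.10.

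Higher in SCC-15 controls were MITF, with 14.5, 11.5 and 11.5 CPM in SCC-15 and 4.17, 5.43 and 4.64 CPM in CAL-27 controls (1.39 ± 0.14, edgeR adjusted p = 1e-14), and VPS11, with 28.8, 26.7 and 28.2 CPM in SCC-15 and 13.9, 11.6 and 15.4 CPM in CAL-27 controls (1.04 ± 0.089, edgeR adjusted p = 1.33e-17). CTSZ (0.54 ± 0.039) and GUSB (0.46 ± 0.051) were higher too, and CTSB (-1.79 ± 0.029), NEU1 (-1.61 ± 0.046) and ATP6V1B2 (-1.78 ± 0.04) were lower. All 5 pump subunits, all 5 receptors and all 4 ATG8 members were called lower in SCC-15 controls, but the call of ATP6V1H (-0.11 ± 0.054, edgeR adjusted p = 0.0484) was lost under 10 alternatives, among them the fits without CAL-27 shControl library 2 (-0.09), CAL-27 shControl library 3 (-0.12), SCC-15 shControl library 1 (-0.11), SCC-15 shControl library 2 (-0.10), SCC-15 shControl library 3 (-0.13), SCC-15 shTTK library 2 (-0.11), SCC-15 shTTK library 3 (-0.11) or both SCC-15 libraries numbered 1 (-0.11) (adjusted p from 0.0245 to 0.186). TFEB did not differ detectably between the controls (-0.08 ± 0.10). Levels per kilobase of merged exons compare genes only roughly, because the exons of every annotated transcript are counted. By that scale PSAP had the highest level of the 52 in every group. It had 353 CPM per kilobase in CAL-27 shTTK and 311 in CAL-27 shControl libraries. In SCC-15 it had 337 in shTTK and 339 in shControl libraries. CTSB came next in CAL-27, at 315 in shTTK and 239.9 in shControl libraries. The lowest were MITF in CAL-27 (0.541 in shTTK and 0.661 in shControl libraries) and WIPI1 in SCC-15 (0.404 in shTTK and 0.310 in shControl libraries).

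**Figure D4:**
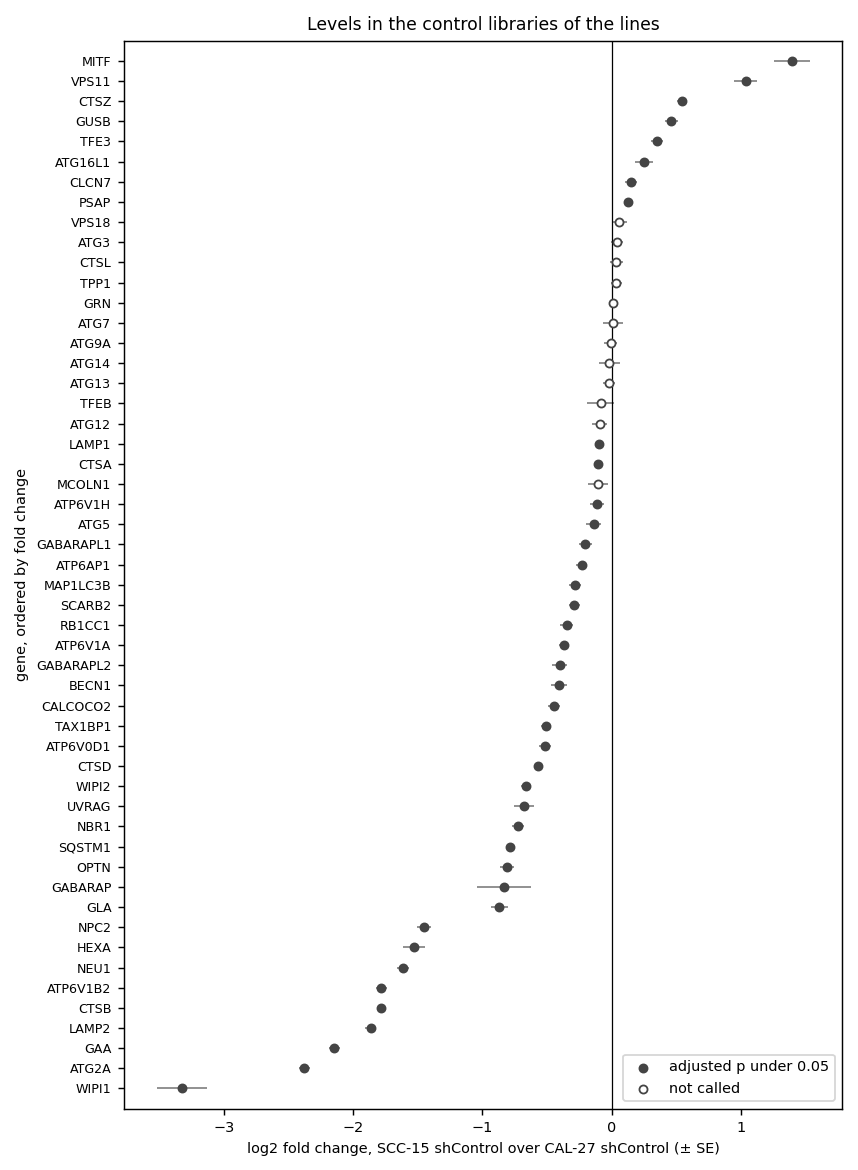
Log2 fold change of the 52 genes in SCC-15 shControl over CAL-27 shControl libraries, ordered by its size (lines ± 1 SE, filled points called at an adjusted p under 0.05). MITF and VPS11 lie above 1 on the log2 scale, and WIPI1, ATG2A and GAA lie below -2.

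The other genes of these pathways were taken from 7 lists, which held 161 tested genes besides the 52. In CAL-27, 18 were higher and 38 lower (34.8%, against the 27.3% of all tested genes), and in SCC-15, 27 were higher and 37 lower (39.8%, against 27.7%). No share was computed for genes at the level of these 161, so a part of level in the excess was not tested. The share called in each list is given in parentheses for CAL-27 and then SCC-15. Among 41 other hydrolases and activators, 7 rose and 9 fell in CAL-27, and 5 rose and 10 fell in SCC-15 (39.0% and 36.6% called). The cathepsin gene CTSC rose in CAL-27, at 324 ± 9.09 CPM in shTTK and 222 ± 3.53 CPM in shControl libraries (SD, n = 3, log2 fold change 0.54 ± 0.033), and so did GM2A, an activator of ganglioside breakdown (0.59 ± 0.038). NAGLU and IDS, which degrade heparan sulfate, fell in SCC-15 (-0.55 ± 0.08 and -0.44 ± 0.075).

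Among the 15 other pump genes, 2 rose and 3 fell in CAL-27, and 5 rose and 2 fell in SCC-15 (33.3% and 46.7% called), so that the CAL-27 share was near that of all tested genes and the calls went both ways. ATP6V1C1, the subunit that joins the sectors of the pump, fell in both lines, at 66.1 ± 2.07 CPM in CAL-27 shTTK and 91.7 ± 1.40 CPM in CAL-27 shControl libraries (-0.47 ± 0.051), and 61.4 ± 6.29 CPM in SCC-15 shTTK and 118 ± 6.78 CPM in SCC-15 shControl libraries (-0.94 ± 0.05). TCIRG1, which encodes a membrane subunit of the pump, rose in both (0.17 ± 0.039 in CAL-27 and 0.18 ± 0.041 in SCC-15). Of 30 other membrane and trafficking genes, 3 rose and 10 fell in CAL-27, and 7 rose and 9 fell in SCC-15 (43.3% and 53.3% called). NPC1, the membrane partner of NPC2, fell in CAL-27 (-0.35 ± 0.051), and OSTM1, the partner of CLCN7, did too (-0.59 ± 0.06). Neither fell in SCC-15. There NPC1 averaged 55.6 ± 2.81 CPM in shTTK and 46.1 ± 0.897 CPM in shControl libraries. OSTM1 averaged 25.0 ± 0.609 CPM in SCC-15 shTTK and 23.8 ± 1.75 CPM in SCC-15 shControl libraries. LAPTM4A rose in both lines (0.14 ± 0.038 in CAL-27 and 0.26 ± 0.038 in SCC-15).

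Of 32 other genes of initiation, core machinery and fusion, 3 rose and 5 fell in CAL-27, and 2 rose and 6 fell in SCC-15 (25.0% called in each line, near the share of all tested genes). DAP had 309 ± 10.2 CPM in CAL-27 shTTK and 576 ± 14.3 CPM in CAL-27 shControl libraries (-0.90 ± 0.033), and ULK1, the kinase that starts autophagy, rose in CAL-27 (0.27 ± 0.05). Of 17 other receptors, 2 rose and 3 fell in CAL-27, and 4 rose and 5 fell in SCC-15 (29.4% and 52.9% called). NCOA4, the receptor of ferritin, fell in both lines (-0.27 ± 0.032 in CAL-27 and -0.41 ± 0.034 in SCC-15). Of 8 other tether subunits, none rose and 2 fell in CAL-27, and 2 rose and 3 fell in SCC-15 (25.0% and 62.5% called), and VPS33A fell in both (-0.42 ± 0.12 and -0.45 ± 0.10 in CAL-27 and SCC-15). Among 18 genes that control TFEB or act with it, 1 rose and 6 fell in CAL-27, and 2 rose and 2 fell in SCC-15 (38.9% and 22.2% called, the second below the share of all tested genes). FOXO1 was the 1 that rose in CAL-27 (0.75 ± 0.068), and LAMTOR3, a part of the scaffold that holds mTORC1 at the lysosome, fell in SCC-15 (-0.71 ± 0.085).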

How the data were processed

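RNA of 12 libraries was sequenced as paired ends of 150 bases from strand-specific libraries, per the labels' protocols. The authors deposited raw counts per gene symbol, without normalization. Trim Galore 0.6.6, STAR 2.7.7a, featureCounts 2.0.1 and the build hg38 are named, per the submitters' processing notes. The sources do not give the strand setting of the counting or the handling of reads shared between genes, so members that overlap other genes or have near copies are uncertain. Of 58735 lines, 27 have symbols turned into dates by a spreadsheet (0.183% of counts), and all were kept. The 4 groups were taken from the sample titles.

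Genes were filtered with filterByExpr on the groups, scaled by TMM and fitted in edgeR 4.0.16 (R 4.3.3, limma 3.58.1) with robust quasi-likelihood dispersions and 4 group means, which leaves 8 residual degrees of freedom. Tests were two-sided, with Benjamini-Hochberg adjustment over 16946 genes within a contrast, and an adjusted p under 0.05 was called. The contrasts were shTTK over shControl in each line, the SCC-15 change less the CAL-27 change, and SCC-15 over CAL-27 controls. The standard error is the log2 fold change over the root of F. Coordinates and exon lengths came from GENCODE on GRCh38, and promoters from RefSeq. DESeq2 1.42.0 and the other alternatives are under the closing section. Steps were tested on simulated data.

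The 52 genes, the other lists, the roles and the alternatives were chosen with earlier results of these data known, and so was the rule for named genes. It gives library values for TTK, for up to 6 called members with the largest change in each direction of each line, for members called in both lines, and for the most extreme members of the other contrasts. The share of genes at a like level was added after seeing the data.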

Additional observations from a re-analysis of the deposited data

Results flagged for a closer look

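In 29 of the 52 genes (55.8%), the change with TTK knockdown differed between the lines by the interaction term of the fit (edgeR, Benjamini-Hochberg adjusted p under 0.05). The share was 25.4% over all tested genes and 41.1% over genes at a like level. Each value given here is the log2 fold change in SCC-15 less that in CAL-27, so a positive value means a higher change in SCC-15. What lies behind the differences was not tested, and libraries numbered 1 of SCC-15 differ from the others of their groups by the mean chi-square given with the depths.

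Positive differences were found for the proteases CTSA (0.15), CTSL (0.34) and CTSZ (0.19), and a negative one for CTSB (-0.18), which rose in both lines. Among glycosidases and their partners, GUSB was positive (0.25), and HEXA (-0.54), GAA (-0.21), PSAP (-0.19) and GRN (-0.27) were negative. Of the pump, ATP6V0D1 (0.22), ATP6V1B2 (0.31) and ATP6AP1 (0.30) fell less in SCC-15 or were called lower in CAL-27 alone, and ATP6V1A fell more in SCC-15 (-0.17). Of the membrane and transport proteins, LAMP1 (0.12) and NPC2 (0.27) were positive and SCARB2 was negative (-0.29).

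TFEB and TFE3 differed in opposite senses (-0.60 and 0.32), and so did the receptors CALCOCO2 (-0.30) and TAX1BP1 (0.25). GABARAPL1 was negative (-0.36). In the initiation arm, WIPI1 (0.84) and ATG2A (0.21) were positive, and ATG14 (-0.33), BECN1 (-0.28) and WIPI2 (-0.19) were negative. ATG3 was negative (-0.22), and ATG16L1 (0.28) and VPS18 (0.42) were positive.

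Of the 29 differences, 18 were called under every alternative. The other 11 were lost when libraries were left out, with the difference without them in parentheses, and 5 of them under other settings too. For ATG14, WIPI1, CTSZ, ATG2A, ATP6V0D1 and ATP6V1A the losses are named with the results. With no filter on low counts CTSA and LAMP1 were lost (edgeR adjusted p = 0.0618 and 0.133). CTSA was also lost without CAL-27 shControl library 2 (0.12), CAL-27 shTTK library 3 (0.12), SCC-15 shControl library 3 (0.14), SCC-15 shTTK library 1 (0.12) or both SCC-15 libraries numbered 1 (0.13). LAMP1 was also lost without CAL-27 shControl library 2 (0.11), CAL-27 shControl library 3 (0.11), CAL-27 shTTK library 2 (0.12), CAL-27 shTTK library 3 (0.09), SCC-15 shControl library 2 (0.10), SCC-15 shControl library 3 (0.11), SCC-15 shTTK library 1 (0.10) or SCC-15 shTTK library 2 (0.10). NPC2 was lost without SCC-15 shControl library 3 (0.19), ATG3 without CAL-27 shControl library 3 (-0.17), CAL-27 shTTK library 2 (-0.18) or both SCC-15 libraries numbered 1 (-0.19), and ATG16L1 without CAL-27 shTTK library 3 (0.26), SCC-15 shControl library 3 (0.26) or SCC-15 shTTK library 3 (0.25).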

How the results depend on the processing

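The alternatives included DESeq2, limma-voom, RLE scaling, no count filter and a minimum of 1 CPM in 3 libraries. Others were separate fits of the lines, a replicate block, leaving out each library, and leaving out both SCC-15 libraries numbered 1. No call of the 52 genes changed direction under these settings. Called under every one were 19 of 24 in CAL-27, 18 of 24 in SCC-15, 18 of 29 for the difference between lines and 38 of 40 between the control lines, where ATG5 and ATP6V1H were lost. With 1 library left out, the 12 higher and 12 lower in CAL-27 became 10 to 12 each, and the 13 higher and 11 lower in SCC-15 became 11 to 13 and 9 to 11. The 15 positive differences became 9 to 16, with 9 without SCC-15 shControl library 3, and the 14 negative became 12 to 14. The reasons for these moves were not tested. Without both SCC-15 libraries numbered 1, chosen after seeing the data, 11 were higher and 11 lower in SCC-15, and 14 differences were positive and 11 negative. With the replicate block, 12 were higher and 12 lower in CAL-27, 13 and 11 in SCC-15, and of all tested genes 1932 were higher and 2600 lower in CAL-27 (1961 and 2657 without it) and 2240 and 2393 in SCC-15 (2277 and 2417 without it). No pairing of the samples by number was seen. Deviations of same-numbered libraries correlated at -0.0197 to 0.0126 in CAL-27 and at -0.0136 to 0.0345 in SCC-15. Such correlations cannot exclude that same-numbered libraries were handled together. Leaving out a single library ended calls of small changes, among them those of LAMP1 and CTSZ in CAL-27 and of CTSA and ATG13 in SCC-15, and GABARAP had the 37 to 92 counts per library given above, which limits what could be detected for it.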
